A study of Homo sapiens with 4 samples.

Results

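Genes switched on by the hypoxia-inducible factors (HIF) outside the glycolytic pathway were followed on 4 Illumina bead arrays of A2058 cells, which are an established line from a human melanoma. They are a list of 35 known HIF target genes, taken by symbol with every probe of each symbol, and they form a small share of the 20045 genes with a named probe. A probe was found for 34 of the 35; FUT11, a fucosyltransferase gene, had none. The 4 arrays hold 1 culture each of 4 kinds: carmustine-selected stem-like cells in hypoxia, the same cells in normoxia, parental cells in hypoxia and parental cells in normoxia. The stem-like cells came from the parental line after 6 months of selection with carmustine at 100 uM, a DNA-alkylating drug, and no allele or transgene is named for either state. The labels do not say whether the selected cells are 1 clone, and the sources used here give neither the oxygen level nor the time in hypoxia. With 1 array per group there is no replicate check and no test, so every difference describes these cultures.

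Under normal oxygen, prolyl hydroxylases mark the HIF alpha subunits for degradation through the VHL protein. In low oxygen the alpha subunits persist, pair with ARNT and bind DNA at short elements with an ACGTG or GCGTG core. Targets outside glycolysis serve many ends: blood vessel signals, removal of mitochondria, lipid storage, restraint of growth signalling, redox balance, and feedback on transcription. Such genes are among the most used markers of hypoxia in tumours, melanoma included.

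The RefSeq promoter windows of 6 members are shown first (GRCh38.p14, 250 bases before to 50 after a gene start, in the gene's direction), because these members carry the main patterns below: BNIP3, AK4 and ANKRD37 were among the members whose response differed most between the cell states, COXFA4L2 and ANGPTL4 stood out in stem-like hypoxia, and TMEM45A was high in hypoxia in both states. Capitals mark each ACGTG or GCGTG, read on either strand, so that CACGTG holds ACGTG on both strands and counts as 2 overlapping matches. The windows are chr10:131981874-131982173 on the minus strand for BNIP3, chr1:65147302-65147601 on the plus strand for AK4 (the first of its 4 windows), chr4:185396591-185396890 on the plus strand for ANKRD37, chr12:57240713-57241012 on the minus strand for COXFA4L2 (the first of 2), chr19:8363905-8364204 on the plus strand for ANGPTL4 and chr3:100492369-100492668 on the plus strand for TMEM45A.
BNIP3: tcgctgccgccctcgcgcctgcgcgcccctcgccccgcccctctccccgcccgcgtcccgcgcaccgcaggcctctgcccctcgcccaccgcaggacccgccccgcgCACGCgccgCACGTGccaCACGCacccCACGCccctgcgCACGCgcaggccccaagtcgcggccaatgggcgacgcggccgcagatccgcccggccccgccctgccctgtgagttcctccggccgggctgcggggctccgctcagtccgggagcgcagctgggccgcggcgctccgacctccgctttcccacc
AK4: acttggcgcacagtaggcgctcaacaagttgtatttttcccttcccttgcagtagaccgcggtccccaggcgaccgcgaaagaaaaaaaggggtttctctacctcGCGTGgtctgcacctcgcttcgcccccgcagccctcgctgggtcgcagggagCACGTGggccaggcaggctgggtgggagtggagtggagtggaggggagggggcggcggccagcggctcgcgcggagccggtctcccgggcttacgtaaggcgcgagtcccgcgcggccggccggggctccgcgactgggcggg
ANKRD37: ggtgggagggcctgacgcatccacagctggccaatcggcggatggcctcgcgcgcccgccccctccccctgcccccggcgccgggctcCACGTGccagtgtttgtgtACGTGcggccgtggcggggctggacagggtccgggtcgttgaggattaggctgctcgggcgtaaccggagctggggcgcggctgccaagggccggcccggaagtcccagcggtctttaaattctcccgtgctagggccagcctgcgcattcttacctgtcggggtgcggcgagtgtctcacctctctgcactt
COXFA4L2: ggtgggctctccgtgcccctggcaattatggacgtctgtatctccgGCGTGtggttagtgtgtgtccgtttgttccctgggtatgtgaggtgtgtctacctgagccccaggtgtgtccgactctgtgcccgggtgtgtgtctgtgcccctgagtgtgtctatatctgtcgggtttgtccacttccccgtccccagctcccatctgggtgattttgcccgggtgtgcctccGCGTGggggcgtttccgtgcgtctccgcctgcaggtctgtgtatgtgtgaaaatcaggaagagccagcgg
ANGPTL4: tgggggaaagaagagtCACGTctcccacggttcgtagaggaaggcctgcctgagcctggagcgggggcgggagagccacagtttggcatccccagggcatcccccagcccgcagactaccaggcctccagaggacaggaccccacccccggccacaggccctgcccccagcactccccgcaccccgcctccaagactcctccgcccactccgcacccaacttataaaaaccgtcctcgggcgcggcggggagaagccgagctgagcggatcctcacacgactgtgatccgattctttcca
TMEM45A: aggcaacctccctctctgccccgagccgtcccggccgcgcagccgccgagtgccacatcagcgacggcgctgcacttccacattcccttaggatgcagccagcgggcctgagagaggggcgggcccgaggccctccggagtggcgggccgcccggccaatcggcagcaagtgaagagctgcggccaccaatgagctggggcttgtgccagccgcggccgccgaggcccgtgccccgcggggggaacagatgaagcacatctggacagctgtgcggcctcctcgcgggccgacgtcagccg

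The BNIP3 window held 6 matches, packed between 143 and 104 bases before the start. AK4 had 3, of which the overlapping ACGTG pair lay 93 and 92 bases before the start, and ANKRD37 had 3, at 162, 161 and 143 bases. COXFA4L2 had 2 GCGTG matches, ANGPTL4 a single ACGTG and TMEM45A none. Windows were found for 26 members. Of these, 17 held ACGTG in at least 1 window (65.4%), against 24.9% of the 27305 genes with a window. Among those detected on all 4 arrays, 14 of 19 members held it (73.7%), against 34.1% of 7401 genes. Either core was held by 23 of the 26 (88.5%), against 52.4% of genes with a window. Among those detected on all 4 arrays, the shares were 89.5% of members and 72.2% of genes. Per window, ACGTG stood in 54.8% of the 42 member windows and in 21.4% of all 35116. No window was found for VEGFA, BNIP3L, NDRG1, ZNF395, HILPDA, FUT11, RAB20, SPAG4 and ANKZF1. A match is a description of letters and not evidence of binding.

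Levels below are normalized log2 signals of the probe with the highest mean over the 4 arrays, and detection means a detection p-value under 0.01. Of the 34 members with a probe, 26 were detected on all 4 arrays, 3 on the stem-like hypoxia array alone and 5 on none. The 5 are EFNA3 (an ephrin ligand of Eph receptors), RORA (a nuclear receptor, with 8 probes), BHLHE41 (a circadian repressor), PPP1R3C (a glycogen-targeting subunit of protein phosphatase) and CA12 (a cell-surface carbonic anhydrase). At a detection p-value under 0.05, COXFA4L2, FGF11 and SPAG4, the 3 seen in stem-like hypoxia alone, were also detected in stem-like normoxia, and RORA in stem-like hypoxia. Between 16432 and 16945 probes were detected per array, with lowest detected levels of 5.22 to 5.29. Melanocyte markers with a probe were detected for 3 of 7 in the stem-like arrays (PMEL, MITF, SOX10) and 6 of 7 in the parental arrays. TYR, MLANA and TYRP1 were not detected in stem-like cells. PMEL was near the lowest detected level there, at 5.28 in stem-like hypoxia and 5.74 in stem-like normoxia. It stood at 12.94 in parental hypoxia and 12.77 in parental normoxia. None of 3 keratinocyte markers was detected; of 4 fibroblast markers 1 or 2 were detected per array, of 3 leukocyte markers with a probe at most 1 (CD14) and of 4 endothelial markers at most 1 (VWF, in parental hypoxia). Fewer cells with a transcript and less of it per cell cannot be told apart in such bulk RNA, and the part of these markers in the results was not tested.

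The first question was how the members differed between hypoxia and normoxia within each cell state. Most were higher in hypoxia in both states, none was past 2-fold lower, and 6 passed 2-fold in both: TMEM45A, BNIP3, BNIP3L, TXNIP, AK4 and INSIG2, against 0.144% of the 9006 genes detected throughout. In stem-like cells, 7 of the 26 members detected throughout were at least 2-fold higher in hypoxia, against 0.3% of the 9006 genes detected throughout, and 0 were 2-fold lower, against 0.167%. Median scaling in place of quantile normalization gave 9 members higher and 0 lower there, and over all genes 38 higher and 3 lower in place of 27 and 15. In parental cells, 10 of 26 were at least 2-fold higher, against 0.355% of genes, and 0 lower, against 0.0777%. At 1.5-fold, 16 members were higher in stem-like hypoxia (2.32% of genes) and 15 in parental hypoxia (1.57%), with 0 lower in either (1.72% and 0.899% of genes). The median log2 fold of the members was 0.79 in stem-like and 0.75 in parental cells, and that of all genes was 0.0001 and -0.0039. Without background correction 2 of 25 members passed 2-fold in stem-like cells (TMEM45A and BNIP3) and 7 of 25 in parental cells, with medians of 0.45 and 0.55. ANGPTL4 was left out there, because its probe with the highest mean was then one not detected in parental cells. The raw signals of that probe were 673 in stem-like hypoxia and 160 in stem-like normoxia.

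**Figure D1:**
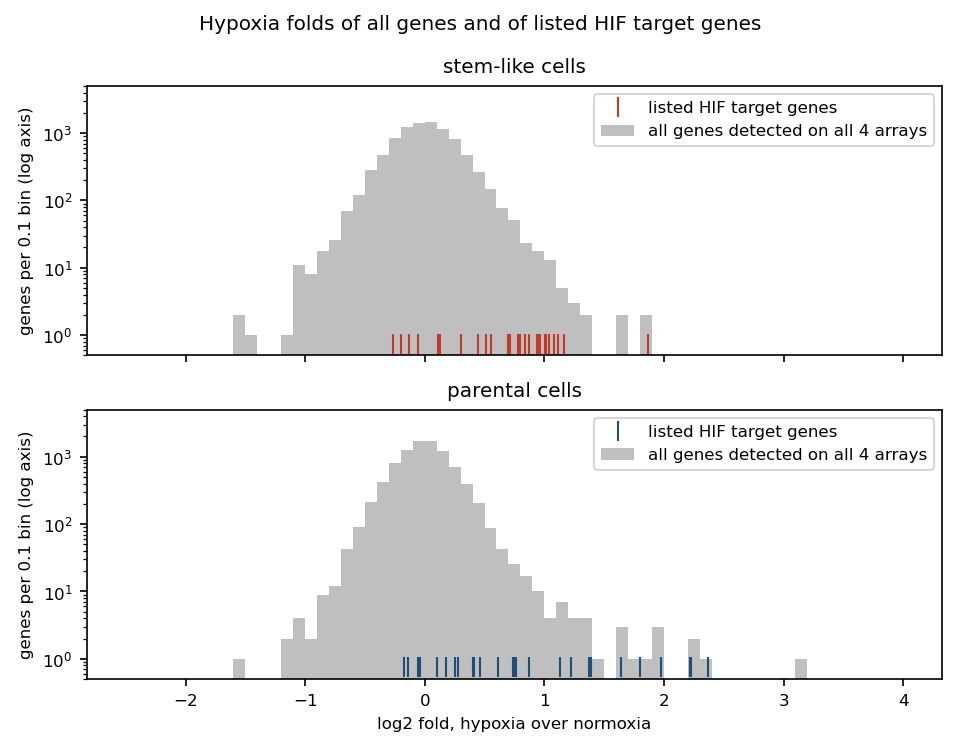
Grey bars count genes detected on all 4 arrays by log2 fold of hypoxia over normoxia (bins of 0.1, log axis), above for stem-like and below for parental cells; coloured ticks mark the 26 listed HIF target genes. The ticks lie mostly right of 0, with 22 of 26 above 0 in each state.

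An idea of technical error came from 2134 genes with several detected probes. Log2 folds of probes of 1 gene had an SD of 0.22 for hypoxia in stem-like cells and 0.20 in parental cells, and 0.27 and 0.29 for stem-like over parental cells in hypoxia and in normoxia. That SD leaves out the error between arrays and cultures. The folds also shrink toward 1 for dim genes, because 16 units were added to each signal.

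All 4 members of mitochondria and mitophagy detected throughout were higher in hypoxia in both states, with median log2 folds of 1.05 in stem-like and 1.68 in parental cells. BNIP3, a receptor that marks mitochondria for autophagy, stood at 12.54 in stem-like hypoxia, 11.38 in stem-like normoxia, 12.23 in parental hypoxia and 10.01 in parental normoxia. Its hypoxic levels were close to each other, while its normoxic level was higher in stem-like cells, so its fold was 2.24 in stem-like and 4.65 in parental cells. BNIP3L, its paralog with a role in clearing mitochondria from maturing red cells, stood at 9.81, 8.73, 9.88 and 8.50 on the same arrays in that order, which gave folds of 2.11 and 2.60. Its second probe gave 2.50-fold and 2.24-fold, so the order of the states is not settled for BNIP3L.

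AK4, a mitochondrial matrix adenylate kinase, stood at 10.92 in stem-like hypoxia, 9.90 in stem-like normoxia, 8.66 in parental hypoxia and 6.68 in parental normoxia. Both stem-like levels were above both parental ones, and the hypoxia fold was 2.02 in stem-like and 3.93 in parental cells. FAM162A, a mitochondrial protein gene tied to hypoxic cell death, had folds of 1.93 and 2.34. COXFA4L2 (NDUFA4L2), which encodes a mitochondrial protein that lowers complex I activity in hypoxia, was detected in stem-like hypoxia alone, at 7.65 and a raw signal of 286. It was not detected in stem-like normoxia (raw signal 126), parental hypoxia (115) or parental normoxia (121). The hypoxia fold in stem-like cells was therefore at least 5.13, and stem-like over parental hypoxia at least 5.27; parental cells gave no fold. At a detection p-value under 0.05, where stem-like normoxia counts as detected, the stem-like hypoxia fold was 5.62 for COXFA4L2, 3.41 for FGF11 and 3.24 for SPAG4.

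Secreted signals gave a mixed picture. VEGFA, the main angiogenic growth factor, stood at 7.05 in stem-like hypoxia, 6.26 in stem-like normoxia, 7.25 in parental hypoxia and 6.11 in parental normoxia, which is 1.74-fold and 2.20-fold higher in hypoxia. Of its other probes, one was detected in parental hypoxia alone, at 5.26 with a lowest detected level of 5.25 on that array, and one nowhere. Without background correction the parental fold of VEGFA no longer reached 2-fold, at 0.55 on the log2 scale. The gene of adrenomedullin, a peptide that widens vessels, is ADM, and it stood at 10.37, 9.26, 10.45 and 10.05 on the arrays in the same order. Its hypoxic levels nearly coincided and its lowest level was in stem-like normoxia, so that its fold was 2.16 in stem-like and 1.32 in parental cells. FGF11, a member of the fibroblast growth factor family that stays inside the cell, was detected in stem-like hypoxia alone, at 6.98, at least 3.22-fold above stem-like normoxia and at least 3.31-fold above parental hypoxia.

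ANGPTL4, which encodes a secreted inhibitor of lipoprotein lipase, depended on the probe. The probe with the highest mean stood at 6.65 in stem-like hypoxia, 5.71 in stem-like normoxia, 6.07 in parental hypoxia and 6.24 in parental normoxia, a log2 fold of 0.94 in stem-like and -0.17 in parental cells. A second probe, annotated to another RefSeq transcript of the gene, stood at 9.27 in stem-like hypoxia and 6.23 in stem-like normoxia and was not detected in either parental array. By that probe ANGPTL4 was 8.24-fold higher in stem-like hypoxia than in stem-like normoxia, and at least 16.2-fold higher than in parental hypoxia. Its raw signal was 673 in stem-like hypoxia and 160 in stem-like normoxia, against 102 and 104 in parental hypoxia and normoxia. The third probe, annotated to the same transcript as the second, was detected nowhere, so the 2 probes of that transcript disagree. The fold of 8.24 exceeds every measured hypoxia fold of a member by its main probe, and both probes were higher in stem-like hypoxia than in stem-like normoxia.

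**Figure D2:**
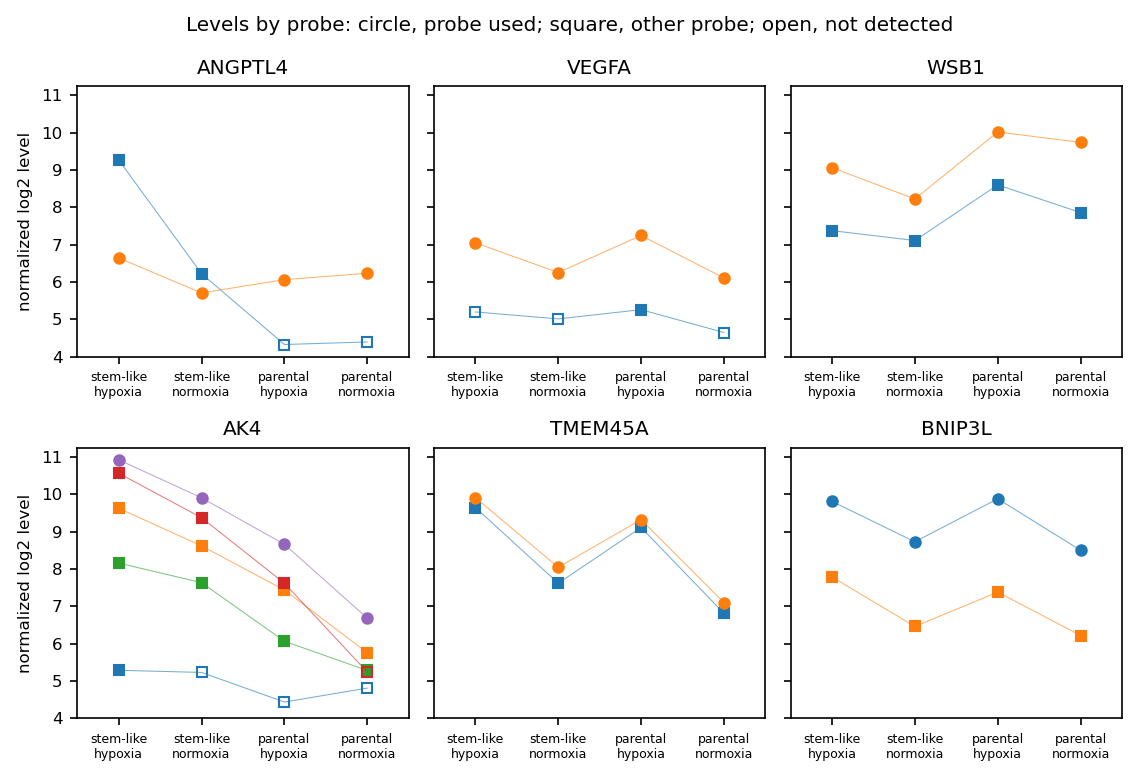
Normalized log2 levels of each detected probe of 6 members on the 4 arrays; circles mark the probe used, squares the others, and open symbols a value that was not detected. The ANGPTL4 probe drawn with squares reaches 9.27 in stem-like hypoxia, while both parental values are not detected.

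Among regulators of growth, redox and stress, NDRG1, a stress gene with a growth-restraining role in several tumours, stood at 11.58 in stem-like hypoxia, 10.80 in stem-like normoxia, 8.99 in parental hypoxia and 6.62 in parental normoxia. Its hypoxia fold was 1.72 in stem-like and 5.17 in parental cells, and its stem-like normoxic level lay above the hypoxic parental one. Without background correction the parental log2 folds of NDRG1, AK4 and TMEM45A were 1.57, 1.27 and 1.60, in place of 2.37, 1.97 and 2.22. TXNIP, an arrestin-fold protein that binds thioredoxin and limits glucose uptake, stood at 10.40, 9.37, 9.52 and 7.87 in that order, with folds of 2.05 and 3.12 and its highest level in stem-like hypoxia. DDIT4, an inhibitor of the growth kinase complex mTORC1, had a fold of 1.82 in each state on different baselines, at 12.10 and 11.23 in stem-like cells and 10.92 and 10.05 in parental cells. ARRDC3, another arrestin-fold gene, stood apart with log2 folds of -0.13 and -0.14.

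The transcription regulators had low folds: none of 5 reached 2-fold in either state, and their median log2 fold was 0.13 in stem-like and 0.18 in parental cells. ZNF395, a zinc finger transcription factor, had the highest folds of them, 1.95 and 1.69, and with median scaling it passed 2-fold in stem-like hypoxia, at 1.04 on the log2 scale. CITED2, which competes with HIF for the coactivator CBP/p300, had 1.36 and 1.13, and BHLHE40, a basic helix-loop-helix repressor, 1.09 and 1.33. NFIL3, a leucine zipper repressor, stood at log2 folds of 0.11 and 0.10. MXI1, an antagonist of MYC, had log2 folds of -0.27 and -0.04. Its level was 6.27 in stem-like hypoxia, 6.54 in stem-like normoxia, 8.09 in parental hypoxia and 8.14 in parental normoxia, so the states differed by far more than the oxygen conditions.

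Of the lipid, pH and secretory pathway genes, INSIG2, which holds the sterol sensor complex in the endoplasmic reticulum, had the highest folds. It stood at 8.90 in stem-like hypoxia, 7.90 in stem-like normoxia, 8.39 in parental hypoxia and 7.005 in parental normoxia. These are folds of 2.003 and 2.61, and the stem-like one sits on the 2-fold line. ERO1A, an oxidase that drives disulfide bond formation, had 1.43 and 1.70. HILPDA, a lipid droplet protein that inhibits fat breakdown, had 1.23 and 1.53, and RAB20, a small GTPase of vesicle traffic, 1.64 and 1.19. The 4 members of this group lay above 0 in both states.

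In the remaining group TMEM45A, a membrane protein gene, had the highest fold of all members in stem-like cells among those detected throughout. It stood at 9.91 in stem-like hypoxia, 8.04 in stem-like normoxia, 9.32 in parental hypoxia and 7.10 in parental normoxia, with folds of 3.64 and 4.67, and its second probe gave 4.08 and 4.91. Its window, shown above, held neither core. ANKRD37, an ankyrin repeat gene known as a HIF target, stood at 8.91, 8.35, 9.26 and 7.46 in that order, with folds of 1.47 and 3.48. ANKZF1, a factor of ribosome-associated quality control, had folds of 1.62 and 1.67, and NARF, which encodes a prelamin A binding protein, log2 folds of -0.06 and 0.46.

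WSB1, a substrate adaptor of a ubiquitin ligase, had folds of 1.79 in stem-like and 1.21 in parental cells by its brighter probe and of 1.20 and 1.67 by its second, so the state with the larger response depended on the probe. SPAG4, a nuclear envelope protein of the SUN family, was detected in stem-like hypoxia alone, at 6.67 and a raw signal of 191. It was at least 2.60-fold above stem-like normoxia and at least 2.67-fold above parental hypoxia. EFNA1, the ephrin ligand detected on all arrays, had log2 folds of -0.20 and -0.05 and did not approach 2-fold.

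**Figure D3:**
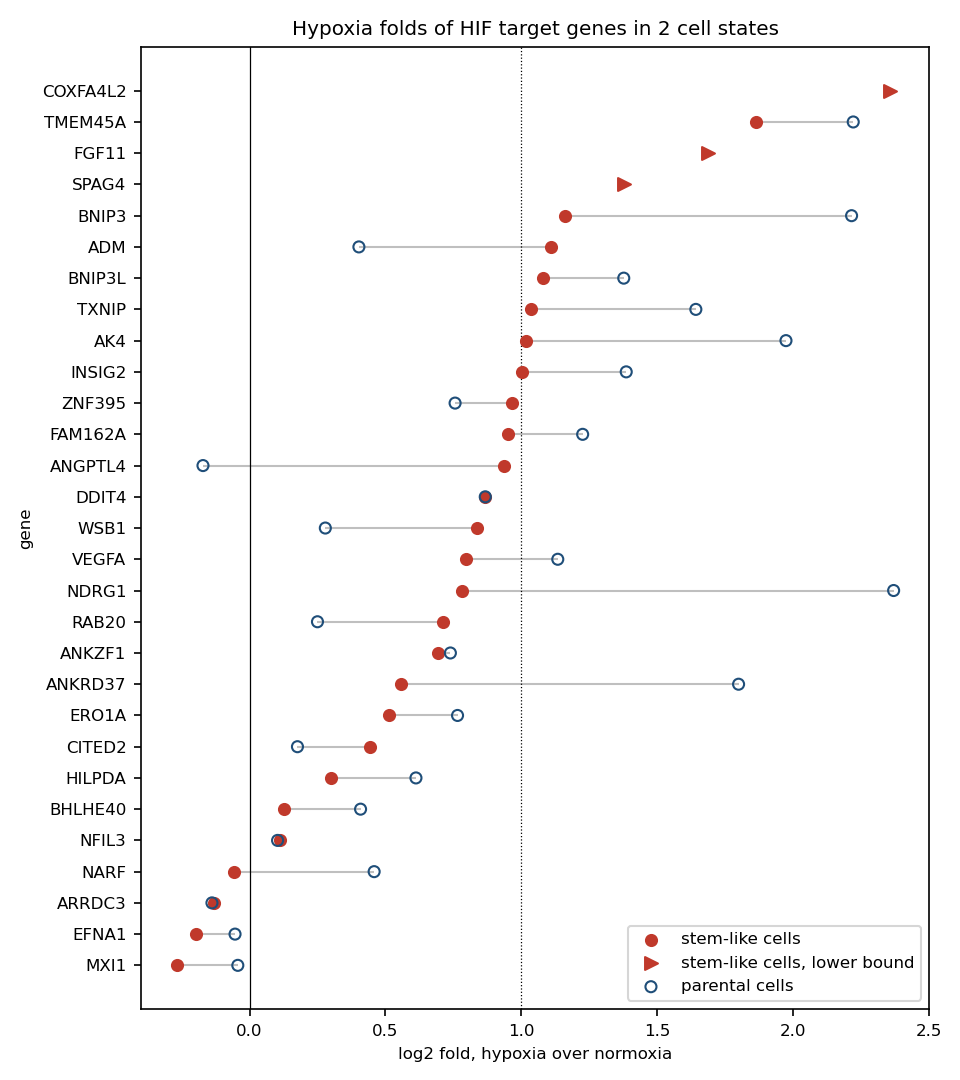
Log2 fold of hypoxia over normoxia for the 29 detected members: filled circles, stem-like cells; triangles, stem-like lower bounds; open circles, parental cells; dotted line, 2-fold. NDRG1, ANKRD37 and BNIP3 have the widest gaps toward parental cells, ANGPTL4 and ADM toward stem-like cells.

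The next question was whether the response differed between the states. The difference of log2 folds, stem-like minus parental, was below 0 for 18 of 26 members, against 49.9% of all genes, with a median of -0.26, against 0.0009 for all genes, whose SD was 0.31. The 18 include ANKZF1 at -0.05 and DDIT4, whose rounded fold was the same in each state. That median was -0.15 without background correction and -0.16 with median scaling, which moved that of all genes to 0.09. With no detection filter it was -0.07 over 34 members, where 3 members passed 1 downward and 4 upward. Members below 0 were 17 of 25, 16 of 26 and 19 of 34 under these settings in that order. The share of all genes below 0 was not counted there. A difference of 1 downward was reached by 3 members (0.344% of genes), NDRG1 at -1.59, ANKRD37 at -1.24 and BNIP3 at -1.06, and AK4 came next at -0.96. Without background correction none of these passed 1: NDRG1 stood at -0.82, ANKRD37 at -0.90, BNIP3 at -0.98 and AK4 at only -0.33. ANGPTL4 then rested on its second probe, which was not detected in parental cells, so it was not among the 25 members detected on all arrays. With median scaling BNIP3 stood at -0.98 too. Other AK4 probes with a fold in both states gave 2.01, 1.44 and 2.28 for hypoxia in stem-like cells. The same probes gave 3.20, 1.72 and at least 5.11 in parental cells, so the size of the AK4 difference depended on the probe and the processing. NDRG1, whose raw signals were 2896 and 1691 in stem-like hypoxia and normoxia and 656 and 197 in parental hypoxia and normoxia, lay below the median raw signal of detected probes in parental normoxia alone, where that median was 295. Upward it was reached by ANGPTL4 at 1.11 (0.322% of genes), followed by ADM at 0.71, WSB1 at 0.56 and RAB20 at 0.46. Median scaling gave 2 members downward and 1 upward, and over all genes 19 downward and 46 upward in place of 31 and 29. By the probes used, all 4 mitochondrial members had differences below 0, with a median of -0.63. The 5 transcription regulators had a median of 0.01. The SD between probes of 1 gene was 0.28 for this difference. Second probes gave the other order for BNIP3L and WSB1. Their log2 hypoxia folds in stem-like and parental cells were 1.32 and 1.16 for BNIP3L, and 0.27 and 0.74 for WSB1. The counts leave out COXFA4L2, FGF11 and SPAG4, which passed detection in stem-like hypoxia alone. A gene detected on that array alone can only have an upward bound in stem-like cells. Without a parental fold, the difference of responses of these genes is not known.

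Baseline levels were then compared between the states. In normoxia 6 of 26 members were higher in stem-like cells by 2-fold or more, against 5.31% of genes, and 2 lower, against 5.11%; median scaling in place of quantile normalization gave 4 higher and 3 lower, and over all genes 332 higher and 775 lower in place of 478 and 460. NDRG1 was 18.1-fold higher and AK4 9.32-fold higher, and the other detected AK4 probes gave 7.26-fold, 5.10-fold and at least 17.2-fold. Without background correction the log2 fold of NDRG1 was 3.18 in place of 4.175, and that of AK4 2.32 in place of 3.22. TXNIP was 2.82-fold higher, BNIP3 2.57-fold, DDIT4 2.26-fold and ARRDC3 2.17-fold, while EFNA1 stood at 1.996-fold, just short of the line. Under median scaling DDIT4 and ARRDC3 no longer reached 2-fold, and ARRDC3 did not without background correction either, at a log2 fold of 0.51. All 4 members of the growth, redox and stress group were among the 6.

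MXI1 was 3.02-fold lower and WSB1 2.86-fold lower in stem-like normoxia; the second WSB1 probe gave 1.68-fold lower, and MXI1 had a log2 fold of -0.94 without background correction. ADM was 1.73-fold lower, and reached 2-fold lower under median scaling. In hypoxia 4 members were higher in stem-like cells by 2-fold or more (5.77% of genes) and 1 lower (5.32%): NDRG1 at 6.00-fold, AK4 at 4.80-fold, DDIT4 at 2.26-fold and ARRDC3 at 2.18-fold higher, and MXI1 at 3.53-fold lower. Without background correction ARRDC3 stood at 0.48 on the log2 scale there, and MXI1 at -1.03. Median scaling gave 4 higher and 3 lower, and over all genes 400 higher and 631 lower in place of 520 and 479. The median log2 fold of the members was 0.32 in hypoxia and 0.40 in normoxia, against -0.01 and -0.02 for all genes. These comparisons share their arrays with the hypoxia folds above, so that a high stem-like normoxia value lifts the baseline fold and lowers the response, and the values are only set side by side.

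**Figure D4:**
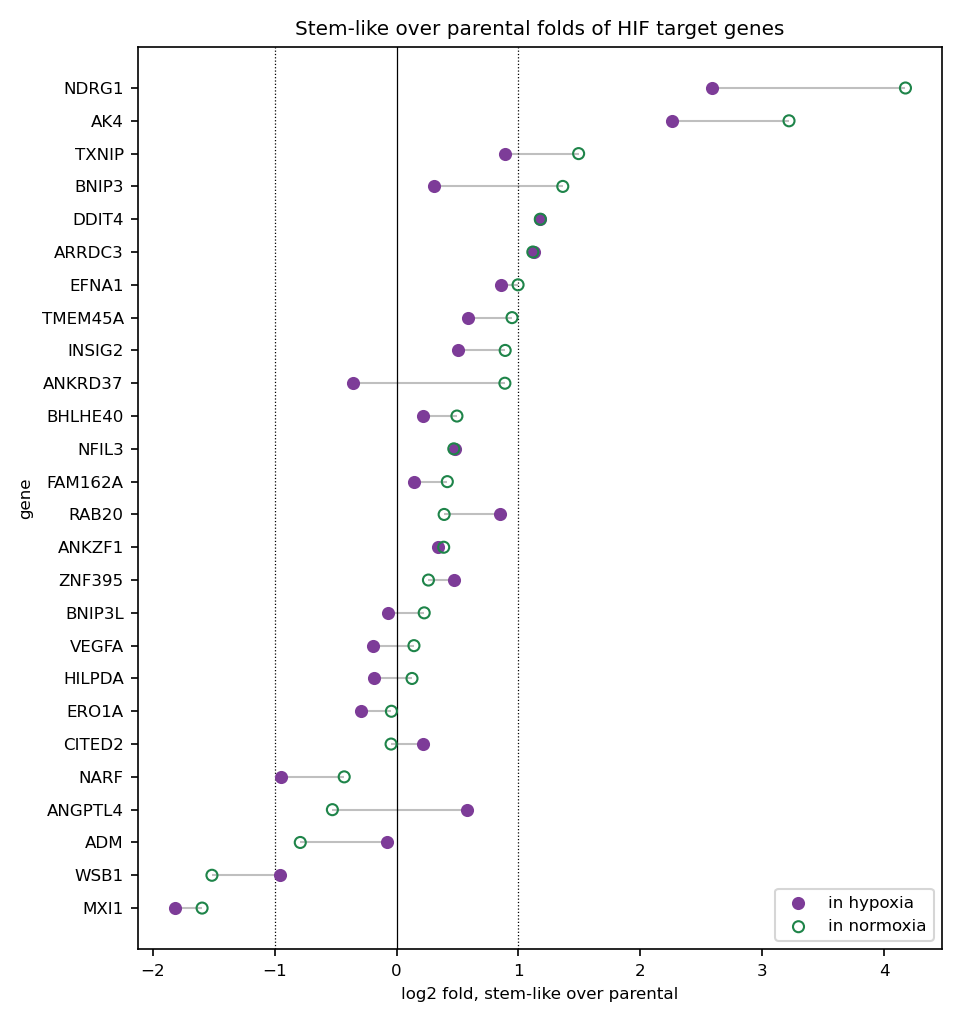
Log2 fold of stem-like over parental cells for the 26 members detected on all arrays: filled circles, in hypoxia; open circles, in normoxia; dotted lines, 2-fold each way. NDRG1 and AK4 lie far to the right in both conditions and MXI1 far to the left.

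Set directly against parental hypoxia, stem-like normoxia had the higher level for 8 of 26 members, against 48.3% of all genes. NDRG1 was 3.49-fold, ARRDC3 2.39-fold, AK4 2.37-fold and EFNA1 2.07-fold higher in stem-like normoxia. The others were NFIL3 at 1.29-fold, DDIT4 at 1.24-fold, RAB20 at 1.10-fold and BHLHE40 at 1.06-fold. Of the 18 members lower in stem-like normoxia, the largest differences were WSB1 at 3.47-fold, MXI1 at 2.93-fold, TMEM45A at 2.42-fold, ADM at 2.29-fold and BNIP3L at 2.22-fold. The share of all genes past 2-fold was not counted for this comparison, and it was not repeated under the alternative settings. How far these folds stand out from those of all genes is therefore not known.

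**Figure D5:**
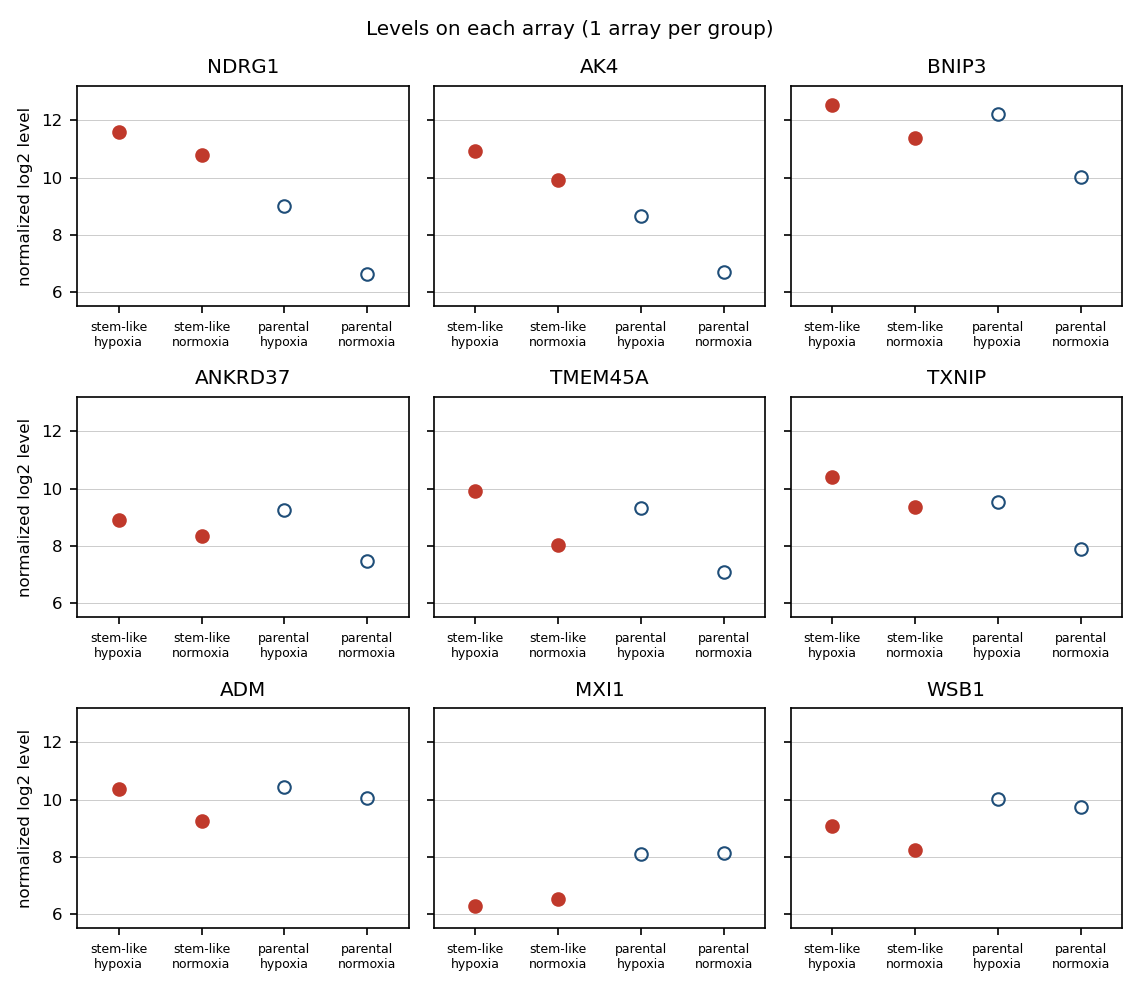
Normalized log2 levels of 9 members on the 4 arrays; filled points are stem-like and open points parental cells, with hypoxia left of normoxia in each pair. NDRG1 and AK4 separate by state, TMEM45A by oxygen, and MXI1 by state in the opposite direction.

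Other genes of the pathway were read from a list of 30 regulators and HIF targets, of which 21 were detected on all arrays. In stem-like cells 4 of 21 were at least 2-fold higher in hypoxia, against 0.3% of all genes, and 0 were 2-fold lower, against 0.167%. In parental cells 8 of 21 were higher, against 0.355%, and 0 lower, against 0.0777%. The median log2 fold was 0.35 in stem-like and 0.45 in parental cells, against 0.0001 and -0.0039 for all genes. In stem-like cells the list was led, among genes detected on all arrays, by IGFBP3 at 3.54-fold, which encodes an insulin-like growth factor binding protein, VLDLR at 3.18-fold, a lipoprotein receptor gene, and P4HA2 at 2.24-fold, a collagen prolyl hydroxylase gene. STC2, which encodes a secreted glycoprotein and was detected in the stem-like arrays alone, had a higher fold of 3.67. In parental cells it was led by TF at 3.97-fold, the transferrin gene, IGFBP3 at 3.94-fold and SLC2A1 at 3.04-fold, the gene of the glucose transporter GLUT1. VLDLR stood at 5.31 in stem-like normoxia, where the lowest detected level was 5.29. The TF level in parental normoxia was also near the lowest detected level of its array. Such levels limit the VLDLR and TF folds, and values of the pathway genes under the alternative settings are not given here. HIF1A and EPAS1, which encode the HIF alpha subunits, had hypoxia log2 folds of 0.00 and 0.09 in stem-like and -0.09 and -0.04 in parental cells. EPAS1 was 3.48-fold and HIF1A 1.68-fold higher in stem-like than in parental normoxia. EGLN1, the gene of the main HIF prolyl hydroxylase and itself a HIF target, had folds of 1.28 in stem-like and 2.13 in parental cells.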

How the data were processed

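Biotin-labelled RNA of 4 cultures was hybridised to Illumina bead arrays; groups follow the sample titles. For every probe and array the deposited non-normalized table gives a mean bead intensity, per the file headers. Beside it stands a detection p-value, also deposited. A second deposited table holds intensity values with the same quantiles on all 4 arrays, judging from the values; how the authors normalized it, and with which software, is not given in the sources used here.

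In the non-normalized values, 98% of the 47315 identifiers stand between 1 and 8 lines from their values, among them all 60 probes used here. Each of the 47323 lines was given its probe by 1 ordered path against the second table, whose identifiers are in step, which brought the Spearman rho of the first array across probes to 1 from 0.0155 by the printed identifiers. Lines without a probe (8) were left out. On simulated lines the path was recovered in full.

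In R 4.3.3 with limma 3.58.1, signals were background-corrected (normexp, with control mean and SD inferred from detection p-values) and offset by 16. They were then quantile normalized and put on the log2 scale. These steps were tested on simulated data with folds set on bright probes only, so the recovery of folds of dim genes was not tested. Gene names come from the platform annotation, which can be old: 30112 had 1 symbol, 8 several and 17195 none, and the first kind was used. The probe with the highest mean stands for a gene. Counts and medians use genes detected (p under 0.01) on all 4 arrays. Values without detection were set no lower than the lowest detected level of their array, and such a fold is written as at least N-fold. A difference is called at 2-fold, with 1.5-fold beside it; no test was made with 1 array per group, and the number of arrays limits the precision. All members are named, and up to 6 other pathway genes per comparison by size of fold. The members and lists were chosen with earlier results of these data known. Promoter windows are RefSeq's (GRCh38.p14). The array's own genome build is not stated. Alternatives were no background correction, median scaling, the authors' table, detection at 0.05, no detection filter and the mean of detected probes, plus 2 chosen after seeing the data.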

Additional observations from a re-analysis of the deposited data

Results flagged for a closer look

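Some members had effects of opposite sign in the 2 cell states or the 2 oxygen conditions; the difference was not tested in any of them, and with 1 array per group a value near 0 takes either sign. The hypoxia fold was above 0 in stem-like and below 0 in parental cells for ANGPTL4 (difference of log2 folds 1.11), and below 0 in stem-like and above 0 in parental cells for NARF (-0.51). The stem-like over parental fold was below 0 in hypoxia and above 0 in normoxia for ANKRD37 (-1.24), VEGFA (-0.34), HILPDA (-0.31) and BNIP3L (-0.30), and above 0 in hypoxia and below 0 in normoxia for ANGPTL4 (1.11) and CITED2 (0.27). The values of VEGFA, HILPDA, BNIP3L and CITED2 lie close to 0.28, the SD between probes of 1 gene for this difference. These signs are those of the probe with the highest mean. By the second ANGPTL4 probe, stem-like cells were higher in both oxygen conditions, at log2 folds of at least 4.02 in hypoxia and 0.96 in normoxia. The second BNIP3L probe was higher in stem-like cells in both too, at 0.40 in hypoxia and 0.24 in normoxia.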

How the results depend on the processing

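No paired analysis was possible because each group holds 1 array. Without background correction, at the same offset, the members' median log2 hypoxia fold was 0.453 in stem-like and 0.546 in parental cells, 2 members passed 2-fold in stem-like hypoxia and 1 was lower in stem-like than in parental normoxia. Over all genes the counts past 2-fold were then 6 up and 1 down for hypoxia in stem-like cells (27 and 15 as reported), 18 and 1 in parental cells (32 and 7), 248 and 209 for stem-like over parental hypoxia (520 and 479), 237 and 180 for normoxia (478 and 460), and 2 and 4 for the difference of responses (29 and 31). The authors' processed table gave values close to these, with medians of 0.456 and 0.549, 2 members up and 1 down, and 6 and 1, 18 and 1, 249 and 212, 241 and 183, and 2 and 4 over all genes. Under each of these settings 14 of 33 member values past 2-fold, or past a difference of 1, fell short of it. ANGPTL4 was left out under both, because it then rested on its second probe, not detected in parental cells. The authors' table keeps the order of the raw signals, at a Spearman rho of 1 on the first array. Its closeness to the setting without background correction is therefore not an independent check. With no detection filter the parental median was 0.406 over 34 members and 7 members were higher in stem-like than in parental hypoxia; over all genes the counts were 72 and 28, 55 and 15, 925 and 750, 848 and 740, and 122 and 92 in the same order. Counting genes detected on at least 1 array of the comparison, chosen after seeing the data, also gave 7, with COXFA4L2, FGF11 and SPAG4 entering at their bounds, and over all genes 52 up in stem-like hypoxia, 796 up in stem-like over parental hypoxia and 718 in normoxia. Median scaling moved the median of all genes to -0.24 in stem-like over parental normoxia and to -0.14 in hypoxia, gave 3 members lower in hypoxia, lost 3 of 34 member values past the threshold and changed the sign of 7 near 0, among them VEGFA, BNIP3L, ZNF395 and HILPDA in normoxia; its counts over all genes stand beside the results. Averaging the detected probes gave 2 members lower in stem-like than in parental hypoxia, took AK4 to 0.85 in stem-like hypoxia over normoxia, and took the difference of responses of WSB1 to 0.04 and of AK4 to -0.63. Taking the probe brightest on any 1 array, also chosen after seeing the data, left 25 members, since ANGPTL4 then rests on a probe not detected in parental cells. A detection p-value under 0.05 changed no value of the 26 members detected throughout, while COXFA4L2, FGF11 and SPAG4 then passed in stem-like normoxia and RORA in stem-like hypoxia. No member value past 2-fold reversed its sign under these settings; where a call was lost, the cause was not tested. Without background correction the stem-like log2 hypoxia fold of RAB20 was 0.31 in place of 0.71. Raw signals in parental normoxia were 145 for RAB20, 158 for ARRDC3, 166 for VEGFA, 173 for ANGPTL4, 197 for NDRG1 and 202 for AK4. The median over detected probes there was 295, and such signals near background limit these folds.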
